A study of Canis lupus familiaris with 51 samples.

Results

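VEGFA and VEGFC, their receptors KDR, FLT1 and FLT4, the angiopoietins ANGPT1 and ANGPT2 with their receptor TEK, and the endothelial genes PECAM1 and VWF were followed across 51 canine cutaneous mast cell tumors (MCTs). Members were all array probes whose gene name, or whose symbol in the probe description, matched one of these 10 genes. This gave 15 probes for 9 of the 10 genes, out of 43603 probes and 11291 gene symbols on the array, and FLT4 had no probe under its name. A further 2 probes, described as growth factor receptor Tie2/Tek, another name of TEK, carry no gene symbol. They were added after the values had been seen and are kept apart as Tie2/Tek.

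The RNA came from the central part of each tumor mass, taken from client dogs at surgery, and was hybridized in 1 color, 1 tumor per array. The labels identify each tumor as a separate case and give sex, age and breed. They name 30 females and 19 males, with no sex for 2 tumors. Age was known for 49 dogs and ran from 3 to 14 years with a median of 8. There were 9 boxers, 9 Labrador Retrievers, 14 crossbred dogs and 17 dogs of 12 other breeds. Every array used here is of a tumor, and the labels do not separate the tumors by histology. These are whole pieces of tumor, so that fewer cells of a type and less RNA per cell cannot be told apart in any value below.

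Endothelial cells line blood and lymph vessels. VEGFA, released by many cells when oxygen is low, acts on them mainly through KDR (VEGFR2), while FLT1 (VEGFR1) binds VEGFA and placental growth factor and can hold the ligand away from KDR. VEGFC is best known for lymphatic growth through FLT4. ANGPT1 activates the receptor TEK and steadies vessels, and ANGPT2, made by endothelial cells during remodeling, mostly opposes it. PECAM1 is an adhesion molecule of endothelial cell contacts, and VWF is the clotting protein that endothelial cells store. Mast cells can themselves release VEGF family ligands.

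The values below depend on which stretch of a transcript a probe matched. The following probe sequences show 1 probe per member, VWF aside, and both the TEK and a Tie2/Tek probe because these behaved differently. They are given 5′ to 3′ as on the array, in lower case throughout, with the chromosome positions listed in the scanner files, whose genome build is not named there. Where the listed span exceeds the 60 bases of the probe, the match is split over the genome. For VEGFA, VEGFC and PECAM1 the printed probe is not the main one used below but followed it, at r = 0.67, 0.98 and 0.94.
VEGFA, A_11_P0000019893 (chr12:15224402-15226702): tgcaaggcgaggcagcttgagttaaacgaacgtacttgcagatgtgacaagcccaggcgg
VEGFC, A_11_P0000027294 (chr16:55953281-55953340): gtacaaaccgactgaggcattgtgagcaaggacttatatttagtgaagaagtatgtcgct
KDR, A_11_P0000026672 (chr13:50375162-50376987): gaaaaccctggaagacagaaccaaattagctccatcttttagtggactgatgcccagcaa
FLT1, A_11_P053511 (chr25:14273491-14273601): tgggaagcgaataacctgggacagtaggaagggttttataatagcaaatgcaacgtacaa
ANGPT1, A_11_P0000020119 (chr13:11128053-11128112): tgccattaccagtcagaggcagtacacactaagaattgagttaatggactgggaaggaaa
ANGPT2, A_11_P050916 (chr16:61342212-61342271): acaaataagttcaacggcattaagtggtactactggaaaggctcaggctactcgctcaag
PECAM1, A_11_P201873 (chr9:15320230-15320885): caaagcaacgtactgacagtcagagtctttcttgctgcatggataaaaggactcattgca
Tie2/Tek, A_11_P0000020541 (chr11:48402599-48404602): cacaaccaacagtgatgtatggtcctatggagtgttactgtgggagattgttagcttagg
TEK, A_11_P0000012962 (chr11:48387698-48387759): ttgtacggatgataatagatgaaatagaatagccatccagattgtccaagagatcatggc

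The probe named TEK lies on the minus strand, whereas both Tie2/Tek probes lie on the plus strand of the same stretch of chromosome 11. It was well above background on 4 of 51 arrays, against 51 and 50 arrays for the Tie2/Tek probes. Its level correlated with theirs at r = 0.07 and r = -0.12, while the Tie2/Tek probes followed each other at r = 0.85. All values under the name TEK are therefore mostly background, and Tie2/Tek is given beside them.

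Across the arrays, 59.4% to 74.8% of spots were well above background, and at most 3 spots per array were saturated. The number of arrays and the brightness over background, not a read depth, limit the precision. The 51 arrays lay on 15 slides scanned in 9 sessions. How many spots of an array cleared background was not correlated with any of the 9 members at an adjusted p under 0.05, with Pearson's r between -0.14 and 0.25 (n = 51, permutation test, lowest adjusted p = 0.36). For Tie2/Tek r was 0.36 (n = 51, permutation adjusted p = 0.092), and 0.20 without the 2 arrays farthest from the median share. As a check of the labels, 15 of the 27 probes called between females and males lay on the X chromosome, where 3.07% of all probes lie.

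Levels are log2 processed signal, quantile-normalized over the 51 arrays, so that a difference of 1 is a doubling. They compare tumors for 1 probe and not 1 gene with another. For genes with several probes the main probe, used unless stated, is the one well above background on most arrays and, among equals, the brightest.

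Among the ligands, VEGFA had the steadiest main probe of all members. It ran from 11.92 in tumor T58 through a median of 12.71 to 14.10 in T114, with an SD of 0.41 (n = 51), a 4.52-fold range. The second VEGFA probe, the one printed above, ran from 1.81 to 9.39 around a median of 5.31 and was well above background on 45 arrays. T114 was highest on it as well, and the probes correlated at r = 0.67, the loosest agreement within a member that was measurable on most arrays. VEGFC ran from 10.68 in T107 through 11.60 to 13.94 in T114 (SD 0.62, n = 51), and its second probe followed it at r = 0.98. The next VEGFC tumor was T61 at 13.04. ANGPT1 was well above background on 40 arrays and ran from 2.73 in T130 through 5.27 to 7.46 in T6 (SD 0.96, n = 51).

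ANGPT2 was the most variable ligand among the main probes. It ran from 5.94 in T9 through 8.12 to 11.67 in T114 (SD 1.06, n = 51), which is 11.8-fold from the median to the highest tumor. T57 followed at 11.14, and the third tumor, LM0, was at 9.78. T114 and T57 therefore stood apart from the other 49 tumors for this vessel-destabilizing ligand.

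Among the receptors, KDR was bright on every array and ran from 10.98 in T77 through 12.36 to 14.65 in T132 (SD 0.82, n = 51). T6 at 14.40 was next. FLT1 ran from 4.78 in T82 through 6.39 to 10.03 in T49 (SD 1.09, n = 51), a 38.2-fold range, and T114 was second at 8.81. The other FLT1 probe, well above background on 40 arrays, put the same tumors first and second, T49 at 8.26 and T114 at 7.17, and the probes correlated at r = 0.88. Tie2/Tek ran from 6.40 in T6 through 7.93 to 9.32 in T113 (SD 0.67, n = 51). T6 was thus the lowest tumor for Tie2/Tek and the second highest for KDR. Its array had the lowest share of spots well above background, 59.4%, and was alone on its slide and in its scan session. Whether this bears on the contrast was not tested.

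The endothelial genes were measured on every array. PECAM1 ran from 9.90 in T51 through 12.20 to 13.10 in T57 (SD 0.66, n = 51), and its 4 probes agreed at r between 0.92 and 0.98, with T51 the lowest tumor on each. VWF ran from 12.90 in T134 through 14.28 to 15.54 in T117 (SD 0.62, n = 51). By SD of the main probe, FLT1 lay above 87.7% of the probes well above background on at least 10 arrays. PECAM1 and VWF lay above 67.4% and 64.1%, and VEGFA above 38.02%. The second VEGFA probe lay above 92.7%, with an SD of 1.34, so the VEGFA probes differ in how variable they make this gene.

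**Figure D1:**
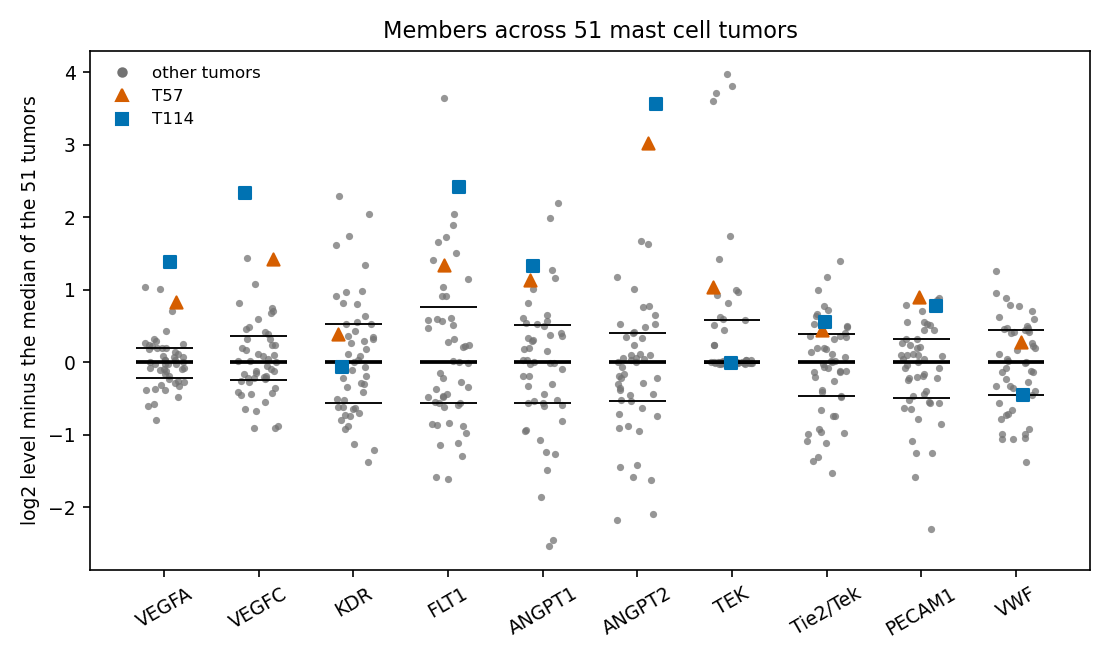
Log2 level of the main probe of each member, and of the brighter Tie2/Tek probe, in each of 51 tumors, as the difference from the median of that probe; thick lines are medians and thin lines quartiles. T114 lies at the top of VEGFA, VEGFC and ANGPT2 but below the median of VWF, and most TEK values sit at the background.

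How the members varied together was tested over the 36 pairs of the 9 genes. Pearson's r passed an adjusted p under 0.05 in 8 pairs, 7 of them positive (n = 51, two-sided permutation test with 100000 resamples, Benjamini-Hochberg over the 36 pairs). The endothelial genes and ANGPT2 rose and fell together. PECAM1 and VWF correlated at r = 0.65 (95% interval by Fisher's z 0.45 to 0.78, Spearman's rho = 0.64, n = 51, permutation adjusted p = 0.00036). ANGPT2 correlated with PECAM1 at r = 0.62 (0.41 to 0.76, rho = 0.59, n = 51, permutation adjusted p = 0.00036) and with VWF at r = 0.50 (0.26 to 0.68, rho = 0.58, n = 51, permutation adjusted p = 0.0019). FLT1 correlated with ANGPT2 at r = 0.56 (0.33 to 0.72, rho = 0.56, n = 51, permutation adjusted p = 0.00084). Each of these 4 pairs also passed within slides, where r was between 0.50 and 0.69, and without the 2 tumors farthest from the median, where r was between 0.59 and 0.67.

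**Figure D2:**
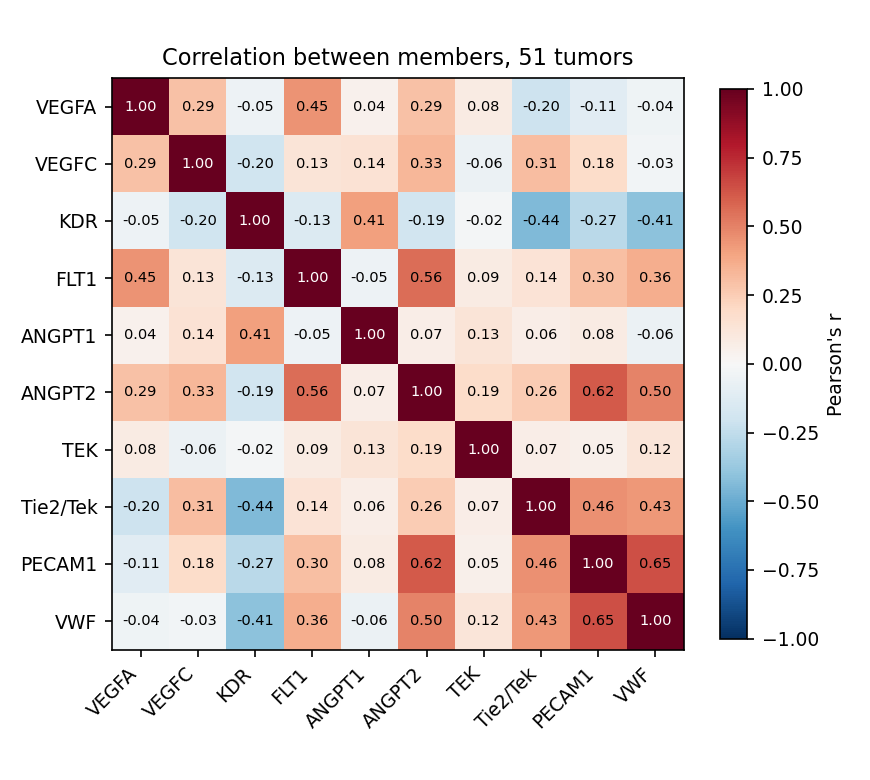
Pearson's r between the log2 levels of the members over 51 tumors, with Tie2/Tek beside the probe named TEK. PECAM1, VWF, ANGPT2 and Tie2/Tek form a block of positive values, and the KDR row is negative towards them.

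The other pairs with FLT1 did not pass in every setting. FLT1 with VWF had r = 0.36 (rho = 0.42, n = 51, permutation adjusted p = 0.038), and r = 0.23 within slides and 0.31 within scan sessions, where it no longer passed. FLT1 with its ligand VEGFA had r = 0.45 (n = 51, permutation adjusted p = 0.0076), but rho was 0.25 (permutation adjusted p = 0.25), and without T57 and T114 r was 0.34 (permutation adjusted p = 0.074). It was 0.48 within slides (permutation adjusted p = 0.067), and it passed within scan sessions (r = 0.51, permutation adjusted p = 0.0071) and without the 2 tumors farthest from the VEGFA median (r = 0.41, n = 49, permutation adjusted p = 0.018). VEGFA with ANGPT2 had r = 0.29 and VEGFC with ANGPT2 r = 0.33, which did not pass (n = 51, permutation adjusted p = 0.12 and 0.080). Their rho was 0.04 and 0.01, and without T57 and T114 r was -0.08 and -0.09. VEGFA with PECAM1 had r = -0.11 and with VWF r = -0.04 (n = 51, permutation adjusted p = 0.69 and 0.80).

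KDR went the other way from the endothelial genes. With VWF r was -0.41 (-0.61 to -0.15, rho = -0.38, n = 51, permutation adjusted p = 0.016) and with PECAM1 -0.27 (-0.51 to 0.01, n = 51, permutation adjusted p = 0.15). The VWF value was -0.38 within slides, -0.34 within scan sessions and -0.33 without the 2 tumors farthest from the KDR median, T132 and T6, and did not pass in these settings (n = 51, 51 and 49, permutation adjusted p = 0.073, 0.076 and 0.095). With Tie2/Tek in the place of TEK, KDR had r = -0.44 (n = 51, permutation adjusted p = 0.0068), while Tie2/Tek correlated at r = 0.46 with PECAM1 and 0.43 with VWF (n = 51, permutation adjusted p = 0.0053 and 0.0068). No correlation of Tie2/Tek with a member or a list was tested by rank, within slides, within scan sessions or with tumors left out. KDR correlated positively with 1 member, ANGPT1, at r = 0.41 (0.15 to 0.61, rho = 0.37, n = 51, permutation adjusted p = 0.016). That value was 0.36 within scan sessions and 0.32 without the same 2 tumors, and did not pass there (permutation adjusted p = 0.16 and 0.11). KDR was measured by 1 probe only, so no second probe could be set beside it.

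Marker lists were used to see which cell types and programs the members followed. The score of a list is the mean over its genes of the level in SD units, with members left out. With 9 members and 13 lists, 37 of the pairs passed (n = 51, permutation test, Benjamini-Hochberg over all such pairs), and 20 of these passed under each of 11 alternative settings. Of the genes listed for mast cells 7 of 14 had a measurable probe, among them FCER1A and MS4A2, chains of the high-affinity IgE receptor, the mast cell protease CMA1 and the receptor KIT, all well above background on every array. Of 30 further endothelial genes, 23 were measurable.

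PECAM1 followed the other endothelial genes at r = 0.81 (0.68 to 0.89, rho = 0.83, n = 51, permutation adjusted p = 0.00015). Of the 23 genes, 12 had r of at least 0.5 with it, where 1.92% of the other measurable probes did, and their median r was 0.52 against -0.08 over those probes. MYCT1 was the closest at 0.78, and the transcription factor ERG the farthest at -0.14. PECAM1 also followed the lymphatic endothelial genes (r = 0.67, n = 51, permutation adjusted p = 0.00015), from PROX1, the lymphatic master regulator, at 0.64 to PDPN at 0.30. For the pericyte and smooth muscle genes r was 0.59 (n = 51, permutation adjusted p = 0.00015), from MCAM at 0.70, which endothelial cells also express, to CNN1 at -0.19. For the fibroblast genes it was 0.43 (n = 51, permutation adjusted p = 0.0070), from LUM at 0.52 to MFAP5 at 0.14. Against the mast cell genes it was -0.47 (n = 51, permutation adjusted p = 0.0032), from CMA1 at -0.21 to MS4A2 at -0.57. MS4A2 was the 1 mast cell gene with r of at most -0.5, against 1.64% of the other measurable probes. With the other VEGF and angiopoietin genes r was 0.43 (n = 51, permutation adjusted p = 0.0070).

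The scores of the other lists were not called with PECAM1. The hypoxia genes ran from HK2 at 0.36 to LDHA at -0.49 and the adipocyte genes from LPL at 0.51 to LEP at -0.26. The skeletal muscle genes ran from DES at 0.29 to TNNI2 at -0.28, the macrophage genes from CSF1R at 0.23 to MSR1 at -0.22, and the lymphocyte genes from LCK at 0.16 to CD79B at -0.06. The epidermal genes lay between DSG1 at 0.18 and EVPL at 0.12, and the proliferation genes between BUB1B at -0.01 and AURKB at -0.13.

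VWF showed the same vessel lists, with r = 0.78 for the other endothelial genes and 0.64 for the pericyte and smooth muscle genes (n = 51, permutation adjusted p = 0.00015 for both). Of the 23 endothelial genes, 11 had r of at least 0.5 with VWF against 1.57% of the other measurable probes. The lymphatic endothelial and the mast cell lists were also called with VWF, under each of the 11 alternative settings as well. The median r of their genes with VWF was 0.46 and -0.40. With the adipocyte genes VWF had r = 0.47 (n = 51, permutation adjusted p = 0.0032) and PECAM1 r = 0.28 (adjusted p = 0.12), but within slides the values were 0.38 and 0.35 (permutation adjusted p = 0.067 and 0.048). VWF had r = 0.16 with the fibroblast genes and 0.28 with the other VEGF and angiopoietin genes, neither of which passed (n = 51, permutation adjusted p = 0.50 and 0.13). The differences between PECAM1 and VWF were not tested.

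ANGPT2 had the strongest correlation with the mast cell genes of all members, at r = -0.72 (-0.83 to -0.55, rho = -0.61, n = 51, permutation adjusted p = 0.00015). Of the 7 mast cell genes, 6 had r of at most -0.5 with it, where 4.14% of the other measurable probes did, and the values ran from FCER1A at -0.73 to CMA1 at -0.48. Without T57 and T114, which had list scores of -1.59 and -2.65 and the highest ANGPT2, r was -0.59 (n = 49, permutation adjusted p = 0.00015). ANGPT2 followed the other endothelial genes at r = 0.70 (n = 51, permutation adjusted p = 0.00015) and 0.63 without these tumors. Of the 23 endothelial genes, 10 had r of at least 0.5 with ANGPT2 against 3.18% of the other measurable probes, led by EMCN at 0.81. ANGPT2 also followed the lymphatic endothelial genes (r = 0.52, n = 51, permutation adjusted p = 0.00082). With the pericyte and smooth muscle genes r was 0.44 (n = 51, permutation adjusted p = 0.0070). Both values passed under each of the 11 alternative settings. The r of 0.39 between ANGPT2 and the hypoxia genes (n = 51, permutation adjusted p = 0.020) fell to 0.05 without T57 and T114 (n = 49, permutation adjusted p = 0.80).

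KDR, a receptor of the endothelium, was higher where the mast cell genes were higher, at r = 0.53 (0.30 to 0.70, rho = 0.57, n = 51, permutation adjusted p = 0.00065). All 7 mast cell genes had a positive r with it, from KIT at 0.29 to MS4A2 at 0.58, and 2 of them reached 0.5, against 2.03% of the other measurable probes. The value was 0.45 within slides, 0.51 without T132 and T6 and 0.63 without T57 and T114, and it passed in each. Against the other endothelial genes KDR had r = -0.38 (n = 51, permutation adjusted p = 0.020), with 2 of the 23 genes positive, ERG at 0.57 and ICAM2 at 0.09. This value did not pass within slides, within scan sessions or without T132 and T6 (r = -0.33, -0.39 and -0.31, permutation adjusted p = 0.12, 0.050 and 0.10). The adipocyte genes ran against KDR at r = -0.52 (rho = -0.52, n = 51, permutation adjusted p = 0.0013), from LEP at -0.16 to CIDEC at -0.51, and passed in each of these settings. The pericyte and smooth muscle genes also ran against KDR at r = -0.42 (n = 51, permutation adjusted p = 0.0091), but did not pass within slides or within scan sessions (r = -0.35 in both, permutation adjusted p = 0.098 and 0.058).

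**Figure D3:**
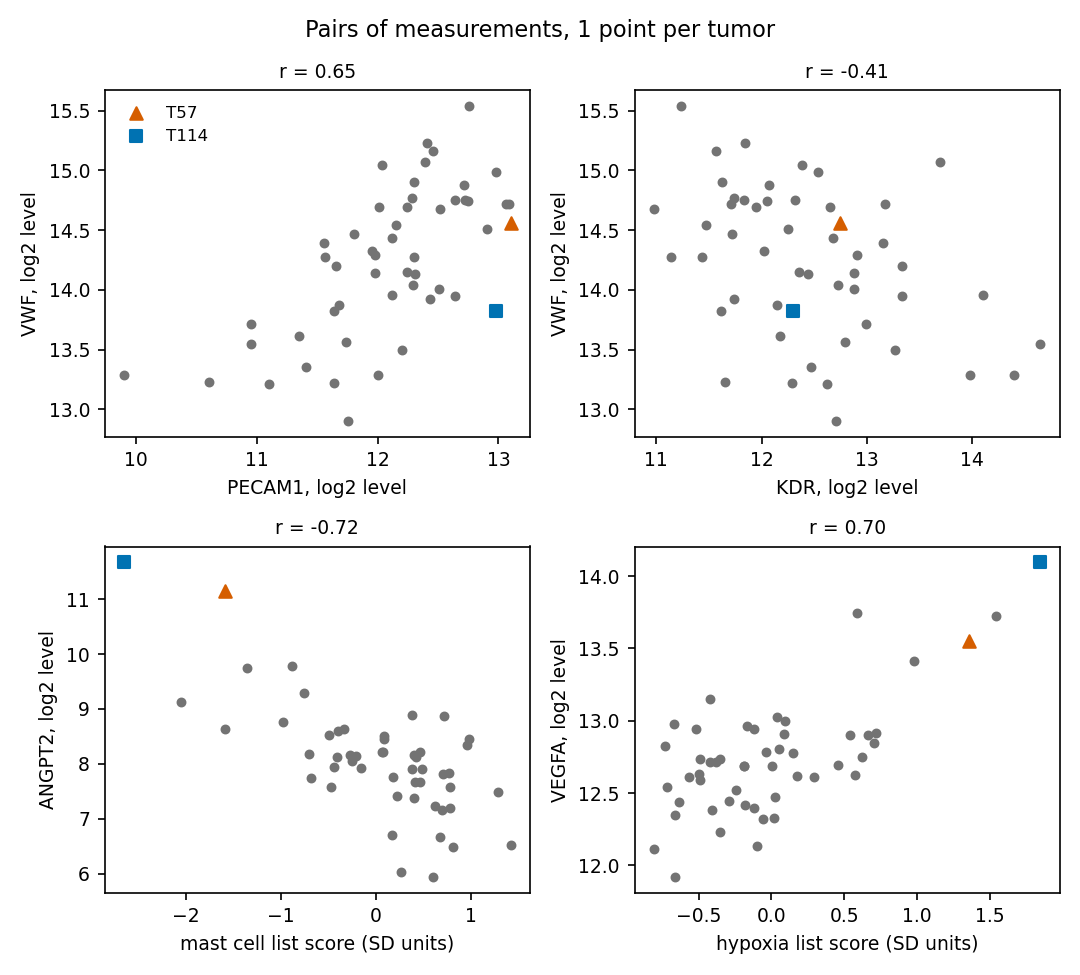
Each point is 1 of 51 tumors; axes are log2 levels or list scores in SD units, and r is Pearson's. PECAM1 and VWF rise together (0.65), VWF falls with KDR (-0.41), ANGPT2 falls with the mast cell score (-0.72) with T57 and T114 at its upper end, and VEGFA rises with the hypoxia score (0.70).

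VEGFA followed the hypoxia-responsive genes, at r = 0.70 (0.53 to 0.82, rho = 0.48, n = 51, permutation adjusted p = 0.00015), and 14 of the 15 genes had a positive r. The closest were ERO1L at 0.65, an oxidase of protein folding, BNIP3 at 0.60 and CA9 at 0.57, which regulates pH, and the exception was PFKFB4 at -0.24. These 3 were the genes with r of at least 0.5, against 1.04% of the other measurable probes. The correlation was 0.78 within slides and 0.57 without T57 and T114, and passed in both (n = 51 and 49, permutation adjusted p = 0.00073 and 0.00023). With the mean over all probes, for VEGFA and for each hypoxia gene alike, it was 0.86. Of the mast cell genes, HPGDS alone had r of at most -0.5 with VEGFA, at -0.52, against 1.15% of the other measurable probes. The values of VEGFA with the proliferation genes (r = 0.38) and the mast cell genes (r = -0.37) did not pass without T57 and T114 (r = 0.24 and -0.12, n = 49, permutation adjusted p = 0.25 and 0.66). The proliferation value passed within slides (r = 0.40, permutation adjusted p = 0.036) and without the 2 tumors farthest from the VEGFA median (r = 0.36, permutation adjusted p = 0.038). Within scan sessions and by rank it did not pass (permutation adjusted p = 0.053 and 0.28). The mast cell value passed in none of these settings.

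VEGFC followed the fibroblast genes at r = 0.50 (0.26 to 0.68, rho = 0.61, n = 51, permutation adjusted p = 0.0015), with all 11 genes positive, from PDGFRA at 0.60 to FBLN1 at 0.18. Of these, 3 reached 0.5, against 2.27% of the other measurable probes. It also followed the other VEGF and angiopoietin genes at r = 0.52 (n = 51, permutation adjusted p = 0.0013), with the coreceptors NRP1 at 0.59 and NRP2 at 0.53, and the macrophage genes at r = 0.39 (n = 51, permutation adjusted p = 0.020), led by MRC1 at 0.60. These 3 values were 0.51, 0.47 and 0.48 without T57 and T114, and that of the macrophage genes did not pass within slides (r = 0.38, permutation adjusted p = 0.067). Its correlations with the hypoxia, mast cell, endothelial and lymphatic lists (r = 0.46, -0.44, 0.36 and 0.37) were between -0.18 and 0.21 without those 2 tumors and did not pass (n = 49, lowest permutation adjusted p = 0.34). The lymphatic value passed without the 2 tumors farthest from the VEGFC median (r = 0.39, n = 49, permutation adjusted p = 0.024) and by rank (rho = 0.38, n = 51, permutation adjusted p = 0.026) but not within slides (r = 0.28, permutation adjusted p = 0.23). The endothelial value passed within slides (r = 0.52, permutation adjusted p = 0.019) and within scan sessions (r = 0.50, permutation adjusted p = 0.0081), but not by rank (rho = 0.29, permutation adjusted p = 0.13). The mast cell value passed within scan sessions (r = -0.50, permutation adjusted p = 0.018) but not within slides (r = -0.43, permutation adjusted p = 0.14), and the hypoxia value in neither (r = 0.41 and 0.40, permutation adjusted p = 0.051 and 0.11).

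FLT1 followed the proliferation genes at r = 0.49 (0.25 to 0.68, rho = 0.41, n = 51, permutation adjusted p = 0.0023), with all 11 genes positive from AURKB at 0.35 to AURKA at 0.53, and ran against the mast cell genes at r = -0.52 (rho = -0.45, n = 51, permutation adjusted p = 0.0013). Both passed without T57 and T114. Of the proliferation genes 1 reached r = 0.5 with FLT1, against 1.83% of the other measurable probes, and 2 of the 7 mast cell genes, HPGDS at -0.64 and MITF at -0.59, lay at or below -0.5, against 2.84%. Its r of 0.48 with the hypoxia genes was 0.26 without the 2 tumors farthest from the FLT1 median, T49 and T114 (n = 49, permutation adjusted p = 0.21), and T49 had a hypoxia score of 1.54. By rank the hypoxia value did not pass either (rho = 0.28, permutation adjusted p = 0.14). It passed within slides (r = 0.54, permutation adjusted p = 0.034) and within scan sessions (r = 0.47, permutation adjusted p = 0.028). Without T57 and T114 it also passed (r = 0.38, n = 49, permutation adjusted p = 0.031). FLT1 with the endothelial genes had r = 0.48 and with the pericyte genes 0.39 (n = 51, permutation adjusted p = 0.0023 and 0.020), which were 0.35 and 0.31 within slides and did not pass there (permutation adjusted p = 0.096 and 0.17). With the skeletal muscle genes r was 0.37 (n = 51, permutation adjusted p = 0.026), and 0.25 within scan sessions (permutation adjusted p = 0.26). Of these 8 genes 7 had a positive r with FLT1, the highest being MYH1 at 0.44, while TNNI2 had -0.47. MYH1 ran only from 4.5 to 6.7. MYH2, TNNT3, MB and DES, with the widest ranges in the list, had r = 0.18, 0.25, 0.31 and 0.34. ANGPT1 had no called correlation with any of the 13 lists, with r between -0.23 and 0.19, and 0.031% of the measurable probes reached r = 0.5 with it. Tie2/Tek followed the other endothelial genes at r = 0.56 (n = 51, permutation adjusted p = 0.00039), where the probe named TEK had 0.02.

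**Figure D4:**
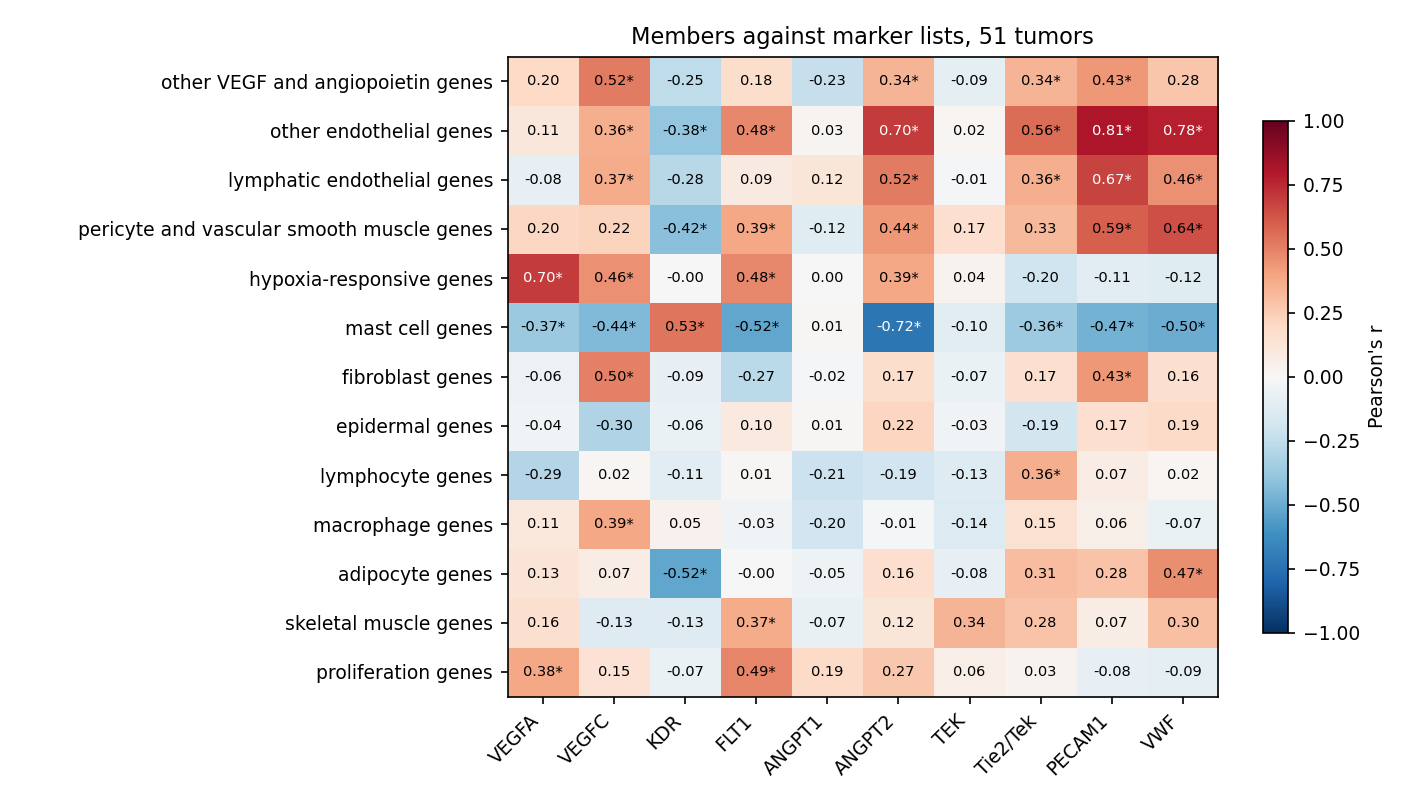
Pearson's r between the log2 level of each member and the score of each marker list over 51 tumors; a star marks an adjusted p under 0.05, over all pairs with the probe named TEK or, in the Tie2/Tek column, with Tie2/Tek in its place. The mast cell row is negative for VEGFA, VEGFC, FLT1, ANGPT2, Tie2/Tek, PECAM1 and VWF, positive for KDR (0.53) and near 0 for ANGPT1.

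Of the 8 other genes of the pathway that were listed, 7 had a measurable probe. PGF, the placental growth factor that binds FLT1, correlated at r = 0.78 with FLT1, 0.68 with ANGPT2 and 0.54 with VEGFA. TIE1, the partner receptor of TEK, correlated at 0.63 with PECAM1, 0.61 with ANGPT2 and 0.60 with VWF. VEGFB ran against ANGPT2 at -0.54 and FLT1 at -0.53, and had r of -0.25 with PECAM1. Over the list, the median r was 0.29 with PECAM1, with 5 of 7 positive, and -0.10 with KDR, with 3 of 7 positive, and the list score was not called with KDR (r = -0.25, n = 51, permutation adjusted p = 0.18).

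The 5 genes whose pattern was most like each member were taken from 10110 named genes, as a description without a test. For PECAM1 they were GNG11, USHBP1, TCF7L2, MYCT1 and CLDN5, a tight junction protein of endothelium, with r from 0.79 to 0.77. For VWF they were CYYR1, SPARCL1, USHBP1, SEPTIN4 and MCAM (0.78 to 0.74). For ANGPT2 they were LMCD1, CD93, EMCN, ITGA1 and FGF13 (0.82 to 0.77), of which CD93 and EMCN are known from endothelium. FLT1 was closest to PGF, SKIL, AK1, STC1 and CH25H (0.78 to 0.70). KDR was closest to GRB2, an adaptor of receptor tyrosine kinases, at 0.77, then to PNPLA8, MYO5A, AHI1 and FSD1 (0.70 to 0.67). No gene of the endothelial list was among these 5 for KDR.

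VEGFA was closest to MAPKAPK2, TBL2, ERO1A, MSMP and FAM117B (0.67 to 0.61), and ERO1A is the ERO1L of the hypoxia list. VEGFC was closest to ROCK2, SMG6, CACNB3, SLC1A3 and FNDC3B (0.75 to 0.70). ANGPT1 had looser neighbors in TMTC1, PIGK, ERG, BCS1L and PKIG (0.55 to 0.47). The probe named TEK was closest to ACTN3, TRIM63, GUCY1A2, STX10 and UBL7 (0.51 to 0.46), and 0.0124% of the measurable probes reached 0.5 with it, against 0.684% for Tie2/Tek.

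Sex, age and breed were compared with limma over all 43603 probes, with Benjamini-Hochberg adjustment. None of the 17 probes, Tie2/Tek included, was called in any of the 5 comparisons at an adjusted p under 0.05. Between females and males 27 probes of the array were called (0.0619%), and 6.22% had an unadjusted p under 0.05. By age none was, though 1063 (2.44%) had an unadjusted p under 0.05. Between boxers and Labrador Retrievers 27 were called (0.0619%), between crossbred dogs and Labrador Retrievers 7 (0.0161%), and between crossbred dogs and boxers 16 (0.0367%). At an unadjusted p under 0.05 the shares were 4.26%, 2.74% and 3.54% for the 3 breed comparisons, and 1 of the 17 probes passed, in the first of them. Between females and males, 8 of the 11 proliferation genes had an unadjusted limma p under 0.05, against 6.22% of all probes. Their median log2 difference was -0.805 (female minus male), and the lowest limma adjusted p among them was 0.79. Genes of 1 list can vary together, so that the 8 of 11 cannot be read against the 6.22%. After adjustment, 0 of the 127 entries of the marker lists were called in any comparison. With shares of called probes this small, the 0 calls among 17 probes do not set the members apart from the array.

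The intervals state what sizes remain possible. For the sexes, VEGFA differed by 0.01 on the log2 scale (female minus male, 95% interval -0.24 to 0.27, limma adjusted p = 0.99), with a mean of 12.76 ± 0.37 (SD, n = 30) in females and 12.74 ± 0.51 (SD, n = 19) in males. VWF differed by 0.23 (-0.13 to 0.59, limma adjusted p = 0.81), PECAM1 by 0.10 (-0.28 to 0.47, adjusted p = 0.91) and KDR by -0.13 (-0.58 to 0.32, adjusted p = 0.91). FLT1 differed by -0.37 (-1.01 to 0.26, limma adjusted p = 0.82). Per year of age no main probe changed by more than 0.09 in either direction, and the ANGPT2 slope was 0.003 (-0.11 to 0.12, limma adjusted p = 1.0).

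By breed, VEGFC was the member with the lowest unadjusted p. In the 9 boxers its level ran from 11.16 through a median of 11.80 to 13.94, and in the 9 Labrador Retrievers from 10.68 through 11.62 to 12.30, so that the groups overlapped. The difference was 0.59 (boxer minus Labrador Retriever, 95% interval 0.01 to 1.16, unadjusted p = 0.045, limma adjusted p = 1.0), and the highest boxer was T114. The second VEGFC probe gave 0.59 (-0.01 to 1.20, limma adjusted p = 1.0). FLT1 differed by 0.64 (-0.39 to 1.67, limma adjusted p = 1.0) and PECAM1 by 0.02 (-0.60 to 0.64, limma adjusted p = 1.0) between the same breeds. Only 1 slide held both a boxer and a Labrador Retriever, so that breed and slide could hardly be separated.

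**Figure D5:**
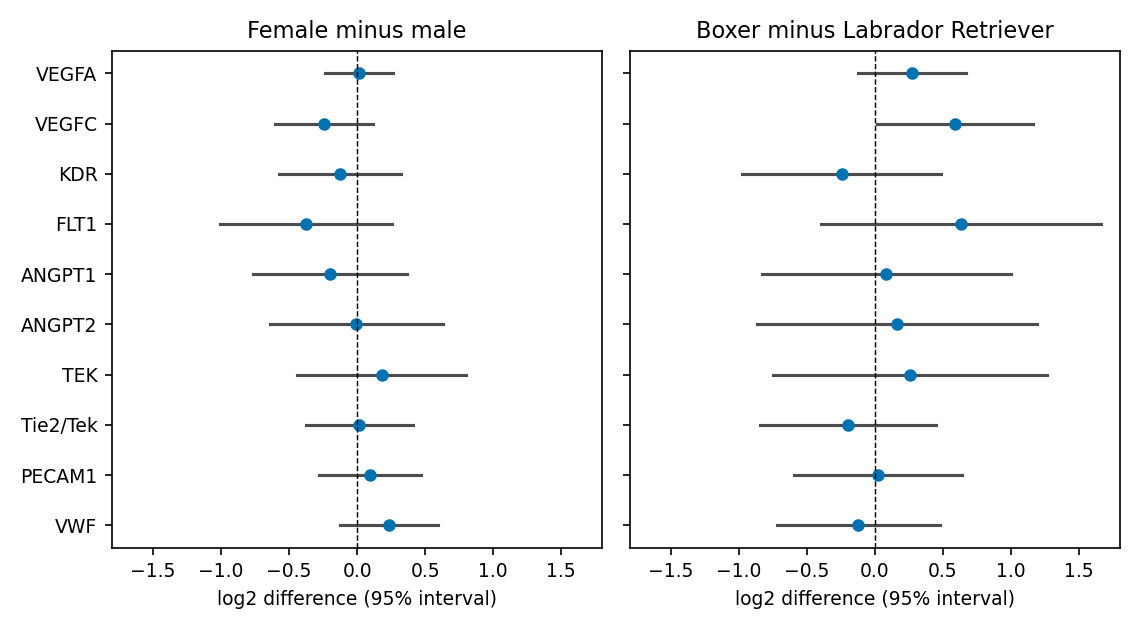
Differences in log2 level of each member with 95% intervals from limma, for 30 females minus 19 males and for 9 boxers minus 9 Labrador Retrievers. Each interval holds 0 except that of VEGFC between the breeds (0.01 to 1.16), which was not called after adjustment over all probes.

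Crossbred dogs, with a median age of 12 against 8 in boxers and in Labrador Retrievers, showed 0.28 more VEGFA than Labrador Retrievers (-0.07 to 0.64, limma adjusted p = 1.0), and 0.93 more on the second probe (-0.19 to 2.06, limma adjusted p = 1.0). ANGPT1 was 0.57 lower in crossbred dogs than in boxers on the log2 scale (-1.40 to 0.26 for the difference, limma adjusted p = 1.0). Between boxers and Labrador Retrievers the intervals of FLT1 and of ANGPT2 (0.17, -0.86 to 1.20, limma adjusted p = 1.0) both include a doubling.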

How the data were processed

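RNA of 51 tumors was measured on 1-color Agilent arrays. The spot intensities deposited come from Agilent Feature Extraction, which the authors ran, and had background removed array by array but nothing adjusted between arrays. The authors also deposited intensities after their own quantile normalization, which served as an alternative. Here processed signals were log2-transformed, then quantile-normalized across tumors with limma 3.58.1 in R 4.3.3. Spots marked as outliers counted as missing, control spots were dropped, and replicate spots were averaged into 1 value per probe. No columns of other series were present. The tumors formed 1 group, compared by the labeled sex, age and breed with limma, while correlations used Python with numpy and 100000 resamples. Genes of marker lists were used if well above background on at least 10 arrays. The fit was tested on simulated data.

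The genes named are all members, the 5 genes most correlated with each, the genes of each list with the highest and lowest correlation with PECAM1 and any list gene called in a comparison, and further list genes were chosen after their values were seen. Members, lists and tests were chosen with earlier results of these data known. Alternatives were 75th percentile scaling, normexp background correction, leaving out dim probes, keeping the spots marked as outliers, the authors' table, slide and scan session as blocks, covariates, only the compared breeds, Spearman's rho, the mean over probes and leaving out 2 tumors. Chosen after seeing the data were the removal of spots flagged for their background, Tie2/Tek in place of TEK, and leaving out T57 and T114. The histological classes of the study were not analysed here, since the labels do not give them.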

Additional observations from a re-analysis of the deposited data

Results flagged for a closer look

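Among the 9 boxers and the 9 Labrador Retrievers, the highest and lowest tumor of each member's main probe was set against the rest, which made 18 groups. In 5 of them 1 tumor stood apart, by its gap to the next tumor over the range of the group. For independent groups of normally distributed values, chance gives about 1 group in 20. The groups of a breed hold the same tumors, and the TEK values lie mostly at background. The 5 of 18 can therefore not be read against that rate. In boxers, T114 stood apart for VEGFA at 14.10, with the next tumor at 12.90, and for ANGPT2 at 11.67, with the next at 8.17. T130 was low for ANGPT1 at 2.73, below the next boxer at 5.24. This value also lay below 4.34, the lowest ANGPT1 level that was well above background. For the probe named TEK, which is mostly at background, T112 stood apart among boxers at 5.46 with the next at 2.24, and T106 among Labrador Retrievers at 3.08 with the next at 2.28.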

How the results depend on the processing

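No member probe was called for sex, age or breed under any alternative that tested it, which was 17 probes in each but the authors' table (15) and the filter on dim probes (16). Of the 8 called pairs of members, 4 were called under each of 11 alternatives (PECAM1 with VWF, ANGPT2 with PECAM1 and VWF, and FLT1 with ANGPT2), and none of the called pairs changed sign. Within slides 5 pairs were called and within scan sessions 5, all positive. The probe named TEK had r = -0.09 with the other VEGF and angiopoietin genes, -0.01 with the lymphatic genes and -0.13 with the lymphocyte genes. None of these was called (n = 51, permutation adjusted p = 0.75, 0.97 and 0.62). With Tie2/Tek in its place the values were 0.34, 0.36 and 0.36, and were called.

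Counts over all probes moved for breed only. Boxer versus Labrador Retriever gave 0 calls with slide as a fixed block and 43 with only these breeds fitted. Crossbred versus Labrador Retriever gave 3 with normexp, 3 with slide as a fixed block and 0 with sex and age as covariates. Crossbred versus boxer gave 6 with slide and 7 with scan session as a fixed block, 9 with sex and age as covariates and 3 with only these breeds fitted. The cause was not tested. No paired analysis was possible because the tumors form 1 group of separate dogs. Signal over background limits ANGPT1 and the second probes of FLT1 and VEGFA most, and leaves the probe named TEK nearly without a level.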
